A study of Mus musculus with 18 samples.

Results

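The genes described here are 9 genes of the cyclic AMP pathway in mouse regulatory T (Treg) cells: the phosphodiesterase genes Pde3b, Pde4b, Pde4d and Pde2a, the protein kinase A subunit gene Prkar1b, and the receptor genes Adora2a, Ptgir, Ptger2 and Ptger4. They were taken by symbol from a table of 23953 entries, and all 9 were among the 11520 genes that reached the minimum of 1 RPKM in 3 libraries. RPKM is a read number scaled by transcript length and by the library's mapped reads, so levels of different genes can be set side by side. Total RNA was sequenced from Treg cells of C57BL/6 mice, sorted by flow cytometry for CD4 and high CD25, in 6 groups with 3 libraries each. In miR-23 Tg, miR-24 Tg and miR-27 Tg mice the T cells overexpressed a single microRNA of the miR-23 cluster, and in cluster Tg mice they overexpressed the whole cluster. DKO mice lacked the miR-23 cluster in T cells through deletion of its a and its b copy, and WT mice were the control. The series title names CD4cre, a Cre recombinase that acts in T cells generally, so the conventional T cells of these mice were altered too. The labels give neither the age of the mice nor the number of animals behind a library. Differences between groups therefore stand against the spread between these libraries, which may be technical.

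Cyclic AMP is made by adenylyl cyclases when receptors coupled to the stimulatory G protein bind their ligand, here adenosine or prostaglandins. It activates protein kinase A, whose catalytic subunits phosphorylate CREB and other proteins once the regulatory subunits release them, and phosphodiesterases break it down. Treg cells are known for high cyclic AMP, for making adenosine through CD39 and CD73, and for a low level of Pde3b, a gene that Foxp3 represses. The 9 genes were chosen by name with results of these data in view, among them differences in RPKM between the groups, and it is not recorded which values prompted each name. Every difference between groups for them is therefore given as a description, without a p-value. Calls and counts at a p threshold are printed for them below, and these are no test of genes so chosen.

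The miR-23 cluster encodes 3 microRNAs with different seeds, which are shown because the groups differ in them. RefSeq (GRCm38.p6) gives the mature sequences below for the cluster on chromosome 8, 5′ to 3′, with the seed (bases 2 to 8) in capitals. The 3 seeds differ from one another, and the labels do not say which genomic copy was overexpressed.
mmu-miR-23a-3p: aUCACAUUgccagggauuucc
mmu-miR-27a-3p: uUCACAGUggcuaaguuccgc
mmu-miR-24-3p: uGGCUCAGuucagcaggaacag

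A match to a seed was a run of AATGTGA (miR-23), ACTGTGA (miR-27) or CTGAGCC (miR-24) on the transcribed strand of the annotated 3′ UTR. The longest such UTR was used for each gene. Of 10174 tested genes with a 3′ UTR of at least 50 bases, 16.3% held the miR-23 match, 17% the miR-27 match, 19% the miR-24 match and 40.5% at least 1 of the 3. Of the 9 members, 7 held at least 1 match. The 3′ UTRs of all 9 were 848 to 3003 bases long (median 1791), against a median of 1140 bases over all genes. Pde4d and Ptgir held none. The matches of the genes that differed between groups are shown first, as 19 bases of mm10 on the gene's strand with the match in capitals.
Pde3b, miR-27 match, chr7:114536350-114536368, plus strand: cttaatACTGTGAgaggat
Pde2a, miR-24 match, chr7:101512490-101512508, plus strand: cttggtCTGAGCCcctctc
Prkar1b, miR-24 match, chr5:139018017-139018035, minus strand: tggtggCTGAGCCctctct
Ptger2, miR-27 match, chr14:45002912-45002930, plus strand: catgtaACTGTGAgtcata

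Pde4b held 3 miR-23 matches close together near the end of its 3′ UTR, and a miR-27 match upstream of them. These are shown because no other member held the same match more than 1 time.
Pde4b, miR-23 match, chr4:102606913-102606931, plus strand: gaagacAATGTGAattttt
Pde4b, miR-23 match, chr4:102606933-102606951, plus strand: tcgtagAATGTGAactgat
Pde4b, miR-23 match, chr4:102606960-102606978, plus strand: tgacgcAATGTGAagcttc
Pde4b, miR-27 match, chr4:102606166-102606184, plus strand: caggccACTGTGAgctaca

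Ptger4 held a match to each of the 3 seeds, and Adora2a a single miR-23 match.
Ptger4, miR-23 match, chr15:5234252-5234270, minus strand: gcatgaAATGTGAattttt
Ptger4, miR-27 match, chr15:5233898-5233916, minus strand: cagaaaACTGTGAttttag
Ptger4, miR-24 match, chr15:5233475-5233493, minus strand: taaagtCTGAGCCtgatac
Adora2a, miR-23 match, chr10:75334360-75334378, plus strand: gataacAATGTGAggaaac

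The libraries carried the microRNA signal that their labels name. Mir23a ran from 31028 to 38276 RPKM in miR-23 Tg libraries, Mir27a from 50014 to 79108 in miR-27 Tg and Mir24-2 from 7999 to 22325 in miR-24 Tg. In cluster Tg they ran from 11691 to 22900 (Mir23a), 13710 to 24076 (Mir27a) and 6051.5 to 7943 RPKM (Mir24-2). Each lay below the matching single group without overlap, so comparisons of cluster Tg with a single group are not at equal microRNA signal. No WT library exceeded 347 RPKM at any of these loci and no DKO library 11.5. All 7 Treg markers were high in every library, with Foxp3 at 197 to 348 RPKM and Il2ra, which encodes CD25, at 155 to 255. Depth, estimated from the steps between low RPKM values, was 20.9 to 31.9 megareads per library. Markers of other cells were present and differed between groups. The summed RPKM of 11 B cell markers was 20.6 to 26.7 in WT and 20.5 to 24.1 in DKO, against 40.4 to 48.7 in miR-23 Tg, 42.4 to 98.7 in miR-24 Tg, 39.6 to 116 in miR-27 Tg and 31.0 to 47.6 in cluster Tg. The libraries that stood apart in it were miR-27 Tg library 3 at 116, miR-24 Tg library 1 at 98.7 and, less far, miR-27 Tg library 2 at 72.8. The sum of 11 myeloid markers was 18.5 to 24.1 RPKM in WT and 17.8 to 33.6 in DKO, and 25.5 to 195 over the overexpressing libraries. The sum of 6 plasma cell markers was 52.9 to 59.4 RPKM in WT, 57.3 to 70.2 in DKO and 63.7 to 170 over the overexpressing libraries. Both CD8 T cell markers together were at 12.8 to 30.8 RPKM in all 18. The sum of 4 naive CD4 T cell markers was 865 to 951 RPKM in WT. It was lower without overlap in miR-24 Tg (662 to 763), miR-27 Tg (749 to 813) and cluster Tg (729 to 851). In miR-23 Tg (825 to 872) and DKO (834 to 867) it overlapped WT.

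Pde3b, the cyclic GMP-inhibited phosphodiesterase (chromosome 7, 114415281 to 114539251, plus strand), was low in WT and higher in each of the 4 overexpressing groups. Its level was 1.33, 2.15 and 1.79 RPKM in WT libraries 1 to 3. It was 8.81, 7.75 and 4.71 RPKM in miR-23 Tg, and 4.46, 7.07 and 5.94 in miR-24 Tg. Every library of these 2 groups lay above every WT library, as did those of the remaining overexpressing groups. In miR-27 Tg the level was 2.78, 3.29 and 6.78 RPKM, in cluster Tg 6.34, 4.44 and 2.68, and in DKO 2.22, 3.94 and 2.48. The DKO libraries also lay above all WT libraries, the lowest of them by a narrow margin.

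By mean level the order for Pde3b was miR-23 Tg (7.09 ± 2.13 RPKM, SD, n = 3), miR-24 Tg (5.83 ± 1.31), cluster Tg (4.48 ± 1.83), miR-27 Tg (4.28 ± 2.18), DKO (2.88 ± 0.927) and WT (1.76 ± 0.409). Each neighbouring pair in this order overlapped except DKO and WT. On the log2(RPKM + 0.5) scale of the limma model, which understates changes of genes as low as this, the difference from WT was 1.72 (3.3-fold) in miR-23 Tg, 1.48 (2.79-fold) in miR-24 Tg, 1.09 (2.13-fold) in cluster Tg and 1.01 (2.01-fold) in miR-27 Tg, each with a standard error of 0.34. These 4 differences were called, meaning that the limma p-value adjusted by Benjamini-Hochberg over all 11520 genes was under 0.05. The DKO difference of 0.56 was not. Between the 4 overexpressing groups no Pde3b difference was called.

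The Pde3b calls depended on single libraries, although the sign did not. Over 12 alternative settings the miR-23 Tg difference ran from 1.53 to 1.97, yet its call ended when any 1 of the 6 libraries was left out, with a pseudocount of 1 and without the filter. The cluster Tg call ended without cluster Tg library 1 (0.83) or 2, or WT library 1 or 3. The miR-24 Tg call ended without miR-24 Tg library 2 or WT library 1. The miR-27 Tg call ended without miR-27 Tg library 2 or 3, or WT library 1 or 3, and without library 3 the difference was 0.66. The calls in miR-27 Tg and cluster Tg also ended without the filter and where only the 2 groups were fitted.

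Markers of other lymphocytes were also higher in several groups with high Pde3b. The 5 genes whose log2 level followed Pde3b most closely over the 18 libraries were Mctp2 (Pearson r 0.87), the B cell coactivator gene Pou2af1 (0.87), Ntrk3 (0.83), the NK cell receptor gene Klrb1c (0.82) and Ramp3 (0.81). These values describe libraries of 6 groups that differ in genotype, so they are no test of a relation. The summed level of 4 NK cell markers was 3.79 to 4.397 RPKM in WT, 5.97 to 7.81 in miR-23 Tg and 6.20 to 8.33 in miR-24 Tg. In DKO libraries 1 to 3 it was 4.67, 7.52 and 5.40 RPKM, above every WT library and in the same order as Pde3b. Within cluster Tg it was 13.999, 7.38 and 3.54 RPKM in libraries 1 to 3, in the same order as Pde3b, and the cluster Tg library with fewer NK marker reads than any WT library had Pde3b at 2.68. The order was also that of Pde3b in miR-23 Tg and WT, but not in miR-24 Tg and miR-27 Tg. In miR-27 Tg the library with the highest Pde3b, number 3, also had the highest NK sum (15.2) and B cell sum (116) of all 18 libraries, and the lowest Foxp3 (197 RPKM). Library 1 of that group had the lowest Pde3b there (2.78) with an NK sum of 8.86, above every miR-23 Tg library, and library 2 had an NK sum of 5.20. Klrb1c, among the 5 genes most like Pde3b, is itself part of the NK sum. In miR-24 Tg the library with the highest B cell sum had the lowest Pde3b of its group (4.46). The part of other cells in the Pde3b levels was not tested, and in bulk RNA fewer cells of a type and less RNA per cell cannot be told apart. Foxp3 itself had a mean of 319 RPKM in WT and 327 in DKO. Its mean was 236 RPKM with miR-23, 271 with miR-24, 271 with miR-27 and 249 with the cluster overexpressed, and it was called in none of the 5 comparisons with WT. Its libraries in miR-23 Tg (215 to 249 RPKM) and cluster Tg (207 to 283) nevertheless lay below all WT libraries (287 to 336).

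**Figure D1:**
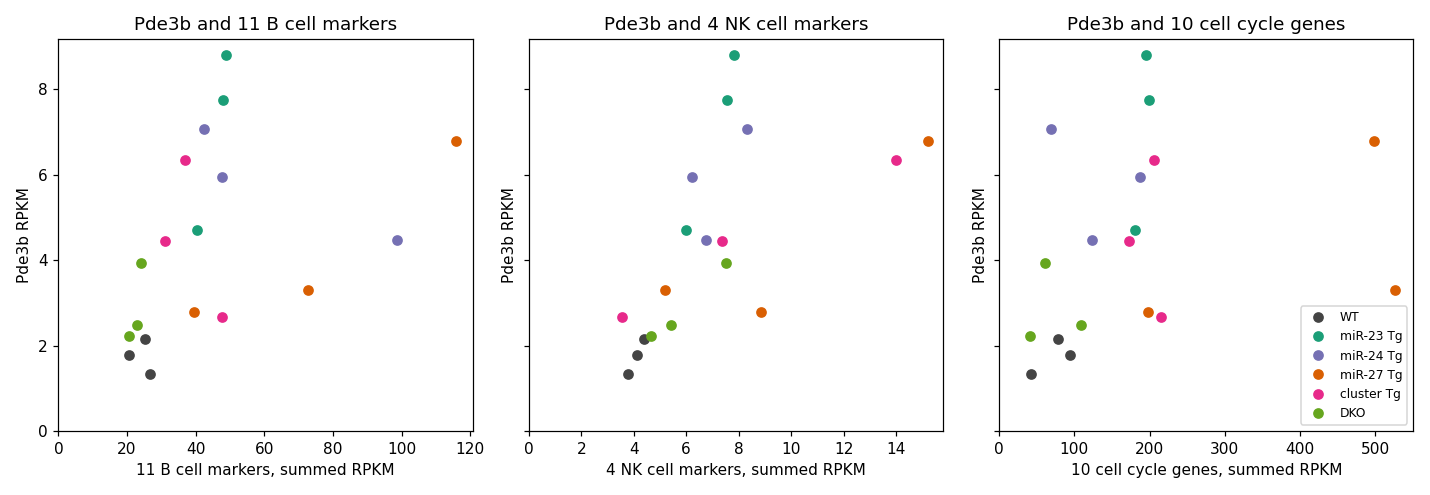
Pde3b level (RPKM, vertical axis) against the summed RPKM of 11 B cell markers, 4 NK cell markers and 10 cell cycle genes (horizontal axes), with a point for each of the 18 libraries coloured by group. The 3 WT libraries sit at the lower left of the NK panel, with Pde3b at 1.33 to 2.15, and miR-27 Tg library 3 lies far to the right in all 3 panels.

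Pde2a, the cyclic GMP-stimulated phosphodiesterase (chromosome 7, 101421691 to 101512827, plus strand), was higher than WT with any overexpression except that of miR-23 alone. It was 33.1, 31.1 and 22.1 RPKM in WT and 28.1, 25.7 and 32.0 in miR-23 Tg, which overlapped. The miR-24 Tg libraries held 46.5, 50.7 and 43.5 RPKM, the miR-27 Tg libraries 70.0, 47.2 and 50.8 and the cluster Tg libraries 63.7, 55.4 and 47.2, so all 9 of these libraries were above all 6 of WT and miR-23 Tg. DKO was the lowest group, at 21.9, 19.3 and 18.1 RPKM, below every WT library. The log2 differences from WT were 0.95 in miR-27 Tg (1.93-fold), 0.94 in cluster Tg (1.92-fold) and 0.71 in miR-24 Tg (1.64-fold), with a standard error of 0.17, and these 3 were called. They were 0.01 in miR-23 Tg and −0.51 in DKO, which were not called. The miR-27 Tg and cluster Tg calls held in all 12 alternatives. The miR-24 Tg call ended without miR-24 Tg library 1 or 2 or WT library 3, and where only the 2 groups were fitted, with values from 0.54 to 0.82 over the 12. Part of a Pde2a exon is shared on the same strand with the predicted gene Gm45837, and how shared reads were counted is not given in the sources used here.

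The cyclic AMP-specific phosphodiesterase genes Pde4b and Pde4d behaved differently from each other in miR-27 Tg. Pde4d (chromosome 13, 108449948 to 109953461, plus strand) was 6.89, 6.17 and 5.004 RPKM in miR-27 Tg, against 10.6, 11.1 and 11.5 in WT. The lowest of the other 15 libraries was miR-24 Tg library 3 at 7.94, so the miR-27 Tg libraries lay below all others. The log2 difference from WT was −0.84 ± 0.14 (SE; 1.79-fold lower) and was called in all 12 alternatives (−0.93 to −0.72). In the other 4 groups the Pde4d difference was between −0.19 and 0.02 and was not called. Within miR-24 Tg the Pde4d level varied, at 9.01, 12.6 and 7.94 RPKM.

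Pde4b (chromosome 4, 102087543 to 102607259, plus strand) was one of the more abundant phosphodiesterase transcripts and overlapped WT in every group. It was 31.3, 30.7 and 23.9 RPKM in WT, 31.7, 30.0 and 32.3 in miR-23 Tg and 25.9, 25.4 and 23.9 in miR-27 Tg. In miR-24 Tg library 2 stood above the rest of its group at 41.2 RPKM, against 30.4 and 29.0. The log2 differences from WT ran from −0.18 to 0.22, with 95% intervals that together reached from −0.46 to 0.50. The miR-23 Tg value was 0.14 ± 0.13 (SE), in the gene with the 3 miR-23 matches shown above.

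The 10 tested phosphodiesterase genes that break down cyclic AMP summed to 111 ± 11.4 RPKM in WT (SD, n = 3) and 108 ± 8.54 in DKO. The sum was 118 ± 6.04 RPKM with miR-23, 134 ± 15.03 with miR-24, 125 ± 16.6 with miR-27 and 129 ± 12.5 with the whole cluster overexpressed. Within that sum the shares differed between groups. Pde2a made up 25.7% ± 3.06 of the sum in WT, 44.4% ± 4.03 in miR-27 Tg, 42.7% ± 2.90 in cluster Tg, 35.2% ± 1.26 in miR-24 Tg and 18.4% ± 0.654 in DKO. Pde3b was a small share everywhere, 1.60% ± 0.450 in WT and 6.05% ± 2.001 in miR-23 Tg, the group where it was highest. Pde4d made up 10.07% ± 1.46 of the sum in WT and 4.81% ± 0.459 in miR-27 Tg. Pde1b, a calcium-activated phosphodiesterase that was not among the 9 genes, went from 19.7% ± 3.19 in WT to 7.91% ± 2.36 in cluster Tg. RPKM sums describe transcripts and say nothing of enzyme activity.

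**Figure D2:**
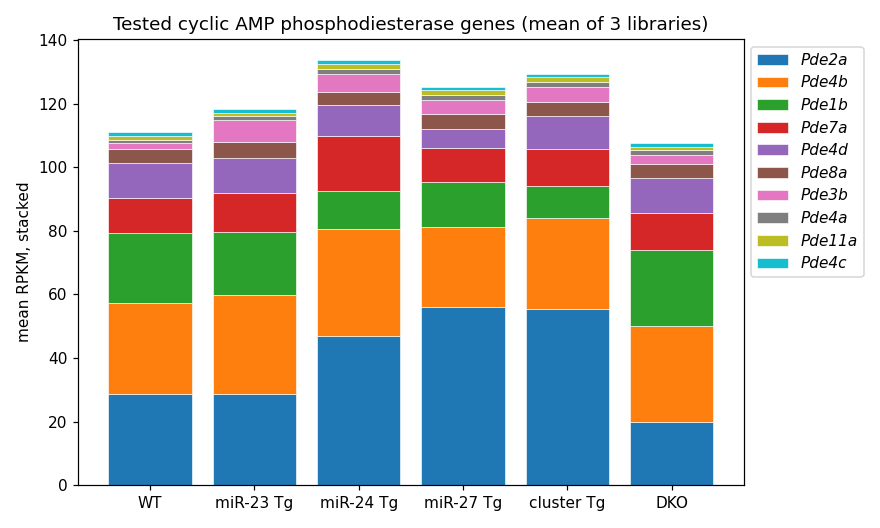
Mean RPKM of the 10 tested cyclic AMP phosphodiesterase genes, stacked, for each of the 6 groups (mean of 3 libraries, no error shown). The Pde2a segment is 28.8 RPKM high in WT, 19.8 in DKO, and 56.0 and 55.4 in the miR-27 Tg and cluster Tg bars, while the Pde3b segment stays small.

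Prkar1b, the type I beta regulatory subunit of protein kinase A (chromosome 5, 139017306 to 139150001, minus strand), had the lowest median of the 9 genes over the 18 libraries, with 12 of 18 at 1 RPKM or more. It was 2.07, 2.17 and 2.66 RPKM in WT and 2.39, 2.49 and 3.004 in DKO. The miR-23 Tg libraries held 1.46, 1.33 and 1.54 RPKM and the miR-24 Tg libraries 0.726, 0.353 and 0.897. The miR-27 Tg libraries held 0.724, 1.74 and 1.32 RPKM and the cluster Tg libraries 0.514, 0.820 and 1.24. All 12 overexpressing libraries were below all 6 of WT and DKO. The log2 differences from WT were −1.30 in miR-24 Tg (2.46-fold lower), −1.07 in cluster Tg (2.10-fold lower) and −0.71 in miR-27 Tg (1.63-fold lower), with a standard error of 0.24, and these were called. The value of −0.52 in miR-23 Tg was not called, although the groups did not overlap. The miR-24 Tg and cluster Tg calls held in all 12 alternatives, but the size followed the pseudocount: with 0.1 added in place of 0.5 they were −1.73 and −1.39. The miR-27 Tg call was kept in 4 of 12 alternatives, with values from −0.90 to −0.47. It ended without any WT library or without miR-27 Tg library 1 or 3. A pseudocount of 0.1, no filter and a fit of only the 2 groups also ended it. An exon of Prkar1b overlaps the predicted gene Gm15672 on the same strand, and how shared reads were counted is again not given.

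Of the prostaglandin receptors, Ptgir, which encodes the prostacyclin receptor (chromosome 7, 16906490 to 16910905, plus strand), was lower than WT in miR-23 Tg and higher in miR-27 Tg. It was 2.35, 2.52 and 4.08 RPKM in WT, with library 3 above the others. It was 1.34, 1.29 and 1.28 RPKM in miR-23 Tg, the tightest group of this gene and below all other libraries of the series. It was 3.67, 4.38 and 5.41 RPKM in miR-27 Tg, which overlapped WT through WT library 3. The log2 differences of −0.91 in miR-23 Tg (1.89-fold lower) and 0.54 in miR-27 Tg (1.45-fold higher), with a standard error of 0.17, were called. Without WT library 3 they were −0.70 and 0.75. The miR-23 Tg call ended without any 1 of its 6 libraries, with a pseudocount of 1 and without the filter. The miR-27 Tg call ended without miR-27 Tg library 2 or 3 or WT library 1 or 2. Both calls also ended where only the 2 groups were fitted. Ptgir was 2.17, 1.89 and 1.92 RPKM in miR-24 Tg, below all WT libraries without a call (−0.45), and 2.70, 3.04 and 3.10 in cluster Tg, within the WT range. The direct difference between miR-27 Tg and miR-23 Tg was 1.45 ± 0.17 on the log2 scale (SE) and was called in all 12 alternatives, from 1.24 to 1.69.

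Ptger2 encodes EP2, a receptor for prostaglandin E2 (chromosome 14, 44988195 to 45003820, plus strand). It was 13.4, 11.8 and 14.01 RPKM in WT, 29.8, 17.7 and 19.7 in miR-27 Tg and 19.4, 21.5 and 22.7 in cluster Tg. The 6 libraries of miR-27 Tg and cluster Tg were above the other 12. It was 13.98, 14.3 and 13.2 RPKM in miR-24 Tg, 11.7, 11.6 and 10.2 in miR-23 Tg and 10.7, 9.46 and 10.5 in DKO, and the latter 2 groups lay below WT without overlap. The differences of 0.72 in miR-27 Tg (1.65-fold higher) and 0.68 in cluster Tg (1.60-fold higher), with a standard error of 0.14, were called. Without miR-27 Tg library 1, which stood above its group, the miR-27 Tg value was 0.50 and still called. That call ended only where the fit held no other group than the 2 compared. Over the 18 libraries Ptger2 and Pde2a were the most alike of the 9 genes (Pearson r 0.84), and Pde2a and Prkar1b the most opposed (r −0.84), given as a description over libraries that share their group.

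Ptger4, which encodes EP4, the other stimulatory receptor for prostaglandin E2 (chromosome 15, 5206661 to 5244187, minus strand), and the adenosine receptor gene Adora2a (chromosome 10, 75316877 to 75334784, plus strand) overlapped WT in all 5 groups. Ptger4 was the most abundant receptor of the 4, at 53.0, 45.7 and 42.6 RPKM in WT and 59.1, 54.0 and 52.6 in miR-27 Tg. In miR-24 Tg it ran from 34.8 to 58.3 RPKM, the widest spread of any group. Adora2a was 24.3, 23.3 and 20.9 RPKM in WT and 28.7, 32.2 and 20.7 in cluster Tg. Neither was called against WT, and the 95% intervals of their 5 differences together reached from −0.46 to 0.58 for Ptger4 and from −0.38 to 0.53 for Adora2a. Without cluster Tg library 3 the Adora2a difference in cluster Tg was called. Ptger4 shares exon sequence on the opposite strand with Gm15937 (longest overlap 872 bases) and with Ttc33 (82). Opposite-strand overlaps also exist for Ptger2 with Gm17173 (246) and Gm49364 (144). Of the other pathway genes named below, Adcy6 overlaps Gm29331 (495), Rapgef4 overlaps Rapgef4os2 (138) and Pde7a overlaps Gm16093 (48) in this way. Whether reads were counted by strand is not given in the sources used here.

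**Figure D3:**
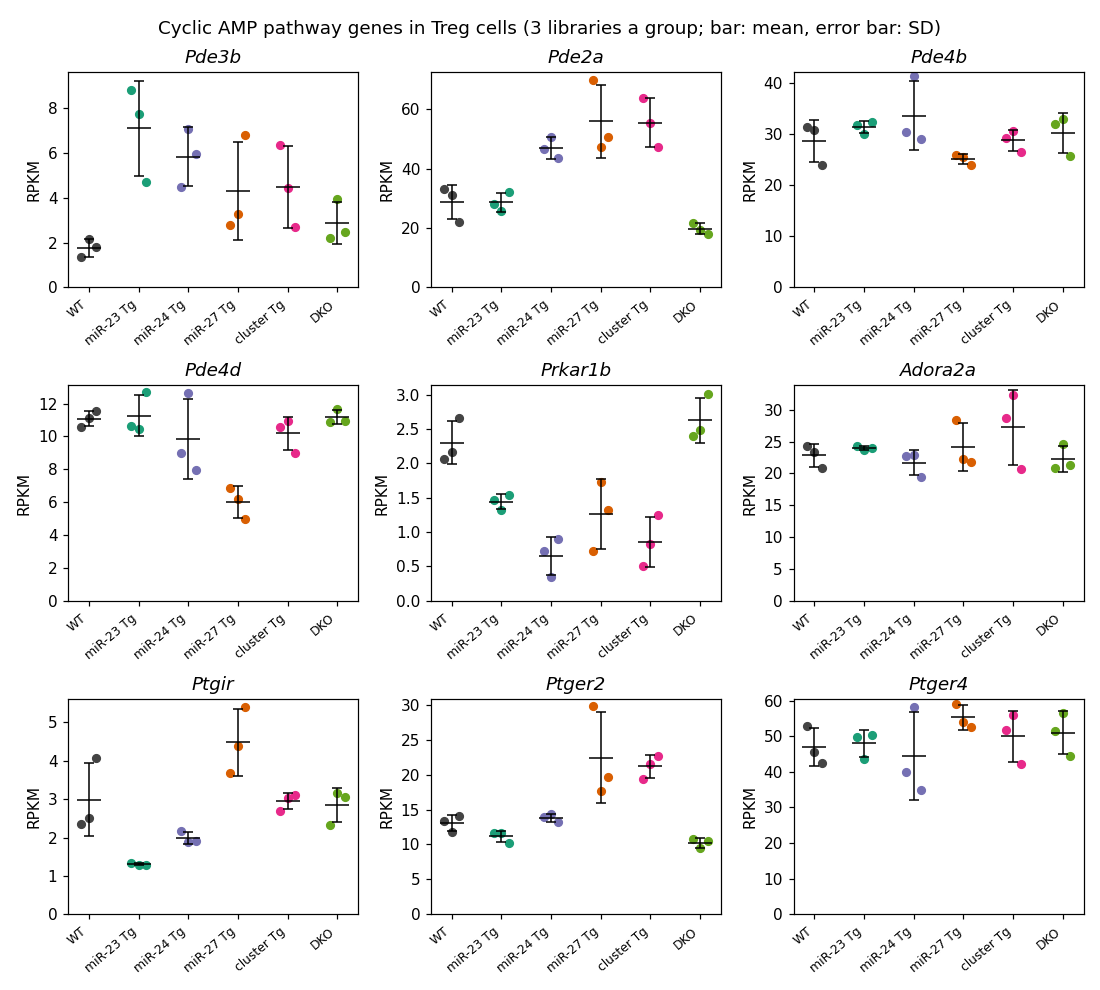
RPKM of each of the 9 genes in each library (points), with the group mean (bar) and SD (error bar), n = 3 per group. Axes start at 0 and differ between panels. WT libraries are lowest for Pde3b (1.33 to 2.15), miR-27 Tg libraries are lowest for Pde4d (5.004 to 6.89), and Ptgir is lowest in miR-23 Tg (1.28 to 1.34).

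Counted by group, miR-27 Tg had the most members called against WT. There, 4 were higher (Pde3b, Pde2a, Ptgir, Ptger2) and 2 lower (Pde4d, Prkar1b), and 5 of 9 did not overlap WT. Of all tested genes 28.6% were called in that comparison, 15.9% higher and 12.7% lower, and 42.8% did not overlap. In cluster Tg 3 were higher (Pde3b, Pde2a, Ptger2) and Prkar1b lower, with 4 not overlapping, beside 24.4% of all genes called (13.8% higher and 10.5% lower) and 40.5% not overlapping. In miR-24 Tg Pde3b and Pde2a were higher and Prkar1b lower, with 4 not overlapping, beside 8.98% of all genes called (4.6% higher and 4.38% lower) and 30.5% not overlapping. In miR-23 Tg Pde3b was higher and Ptgir lower, with 4 not overlapping, beside 0.356% of all genes called (0.156% higher and 0.2% lower) and 24.9% not overlapping. These percentages are the background for genes that were chosen with results known, and nothing is read from the comparison. The 4 sets of differences share the WT libraries. The median log2 difference of the 9 genes was 0.23 in miR-27 Tg, 0.08 in cluster Tg, −0.08 in miR-24 Tg and 0.02 in miR-23 Tg, against 0.01 to 0.02 over all tested genes.

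In DKO, limma called 0 of the 9 genes against WT. At an unadjusted p under 0.05 there were 2 of 9 members and 254 of all genes, and 0.0174% of all genes were called. Pde2a (−0.51 ± 0.17) and Ptger2 (−0.33 ± 0.14) lay below WT and Pde3b (0.56 ± 0.34) above it without overlap, beside 6.04% of all genes without overlap. The other 6 genes overlapped WT, with log2 differences between −0.04 and 0.16.

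**Figure D4:**
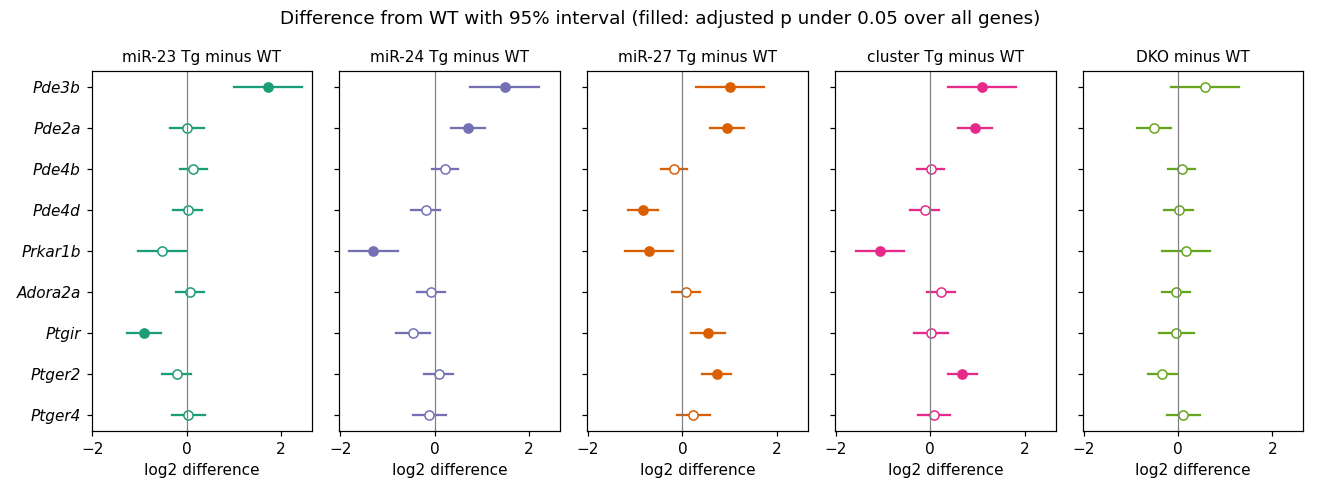
Difference of each of the 9 genes from WT on the log2(RPKM + 0.5) scale (horizontal axis) with its 95% interval, 1 panel per group; filled points were called by limma over all 11520 genes. Pde3b is filled in the 4 overexpressing groups, at 1.72, 1.48, 1.01 and 1.09, and no point is filled in DKO.

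With the 2 libraries of highest B cell markers left out (number 1 of miR-24 Tg and number 3 of miR-27 Tg), a choice made after seeing the data, 3 members were called in miR-27 Tg in place of 6: Pde2a (1.01) and Ptger2 (0.80) higher and Pde4d (−0.72) lower. Calls over all genes also became fewer with these libraries out, 20.5% in miR-27 Tg and 5.03% in miR-24 Tg. Pde3b (0.66), Ptgir (0.41) and Prkar1b (−0.75) were not called there. In miR-24 Tg 2 were called in place of 3, Pde3b (1.65) and Prkar1b (−1.35), while Pde2a (0.72) was not. Pde3b was then called lower in miR-27 Tg than in miR-23 Tg (−1.06). The sum of 10 cell cycle genes was 42.0 to 93.7 RPKM in WT and 40.8 to 109 in DKO. It was higher without overlap in miR-23 Tg (180 to 199), cluster Tg (173 to 216) and miR-27 Tg (198 to 527), while miR-24 Tg (68.7 to 188) overlapped WT. The part of these genes in the differences was not tested.

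Direct comparisons between the altered groups placed the single microRNAs beside each other. Between miR-27 Tg and miR-23 Tg, Ptgir (1.45), Pde2a (0.94) and Ptger2 (0.94) were higher and Pde4d (−0.86) lower in miR-27 Tg, 4 of 9 called beside 23.4% of all genes. Between miR-27 Tg and miR-24 Tg, Ptgir (0.99) and Ptger2 (0.64) were higher and Pde4d (−0.65) and Pde4b (−0.40) lower in miR-27 Tg, beside 24% of all genes. The Pde4b call there was kept in 6 of 12 alternatives, and ended without any 1 of the miR-27 Tg libraries, without miR-24 Tg library 2 or without the filter. The Pde4b, Pde4d and Ptger2 calls between these groups all ended where only the 2 groups were fitted. Between miR-24 Tg and miR-23 Tg, Pde2a (0.70) was higher and Prkar1b (−0.77) lower in miR-24 Tg, beside 13.9% of all genes. Both of these depended on single libraries: the Pde2a call ended without miR-23 Tg library 1 or 2, and the Prkar1b call ended without any miR-23 Tg library or without miR-24 Tg library 1 or 2. The Prkar1b call also ended without the filter and where only the 2 groups were fitted.

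Cluster Tg had less signal at each microRNA locus than the matching single group, as given above, which limits the comparisons between them. Between the whole cluster and miR-27 alone, 1 of the 9 genes was called. Pde4d was 10.6, 10.9 and 9.01 RPKM in cluster Tg, above all miR-27 Tg libraries, with a log2 difference of 0.72 (1.65-fold), beside 6.85% of all genes called. That call ended without miR-27 Tg library 3 and where only the 2 groups were fitted. Ptgir (−0.52) and Pde4b (0.19) also did not overlap between these 2 groups and were not called, although Ptgir was called without miR-27 Tg library 1. Against miR-23 Tg, cluster Tg was higher for Pde2a (0.94), Ptgir (0.93) and Ptger2 (0.90), beside 18.8% of all genes. Against miR-24 Tg, cluster Tg was higher for Ptger2 (0.60), beside 11.5% of all genes. This Ptger2 call ended without miR-24 Tg library 1 or 3 or cluster Tg library 2, and where only the 2 groups were fitted. Between overexpression and loss of the cluster, cluster Tg was higher than DKO for Pde2a (1.46, 2.75-fold) and Ptger2 (1.01, 2.02-fold) and lower for Prkar1b (−1.23, 2.35-fold), beside 26.7% of all genes. These 3 calls held in all 12 alternatives.

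Of the 10 pairings of a member's seed match with the group that overexpressed that microRNA, 1 was called lower, 3 higher and 6 not called. Over all tested genes 15.9% were called higher and 12.7% lower in miR-27 Tg, 4.6% and 4.38% in miR-24 Tg, and 0.156% and 0.2% in miR-23 Tg, and nothing is read from these counts. Of the 3 members with a miR-23 match (Pde4b, Adora2a, Ptger4), none was called in miR-23 Tg, with log2 differences of 0.14, 0.07 and 0.03. Of the 3 with a miR-24 match, Prkar1b was lower in miR-24 Tg (−1.30), Pde2a higher (0.71) and Ptger4 not called (−0.11). Of the 4 with a miR-27 match, Pde3b (1.01) and Ptger2 (0.72) were higher in miR-27 Tg and Pde4b (−0.18) and Ptger4 (0.23) were not called. Ptgir, lower in miR-23 Tg, and Pde4d, lower in miR-27 Tg, held no match in the UTR searched, and Prkar1b, lower in miR-27 Tg, held none for miR-27. A match describes letters in the annotated UTR and is not a measured binding site.

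The remaining genes of the pathway were counted from lists by textbook role: 86 were named, 85 were in the table and 58 were tested. These lists were drawn up with earlier results of these data known, a limit on every count and adjusted p-value given for these genes. Against WT, 8 were higher and 6 lower in miR-27 Tg (24.1% of the 58), 7 higher and 4 lower in cluster Tg (19%), 7 higher and 2 lower in miR-24 Tg (15.5%) and 1 higher and 0 lower in miR-23 Tg (1.72%). The shares over all tested genes were those given above. In DKO limma called 0 of the 58, and 0 had an unadjusted p under 0.05.

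Of 3 tested adenylyl cyclase genes, Adcy6 and Adcy7 went opposite ways within the same groups. Adcy6 fell in miR-24 Tg (4.69 ± 0.506 against 10.9 ± 0.690 RPKM in WT, 2.2-fold, limma adjusted p = 0.00175), in cluster Tg (5.13 ± 1.47, 2.08-fold, limma adjusted p = 0.00106) and in miR-27 Tg (6.72 ± 1.29, 1.6-fold, limma adjusted p = 0.0123). Adcy7 rose in miR-27 Tg (88.4 ± 13.2 against 60.5 ± 3.75 RPKM, 1.45-fold, limma adjusted p = 0.0024) and cluster Tg (80.1 ± 5.89, 1.32-fold, limma adjusted p = 0.0156), and was called higher in miR-24 Tg too (1.34-fold, limma adjusted p = 0.0248). The cluster Tg call for Adcy7 ended without cluster Tg library 2 or WT library 2. Of the other 6 tested phosphodiesterase genes, Pde1b fell in cluster Tg (10.06 ± 2.21 against 21.9 ± 4.95 RPKM, 2.12-fold, limma adjusted p = 0.00164) and in miR-24 Tg (11.9 ± 0.455, 1.78-fold, limma adjusted p = 0.0196), and was called lower in miR-27 Tg too (1.54-fold, limma adjusted p = 0.0316). The miR-24 Tg call for Pde1b ended without miR-24 Tg library 1 or 3 or WT library 1. Pde7a, a cyclic AMP-specific enzyme, rose in miR-24 Tg (17.4 ± 0.360 against 10.9 ± 1.05 RPKM, 1.58-fold, limma adjusted p = 0.00105). In miR-27 Tg Pde7a was at 10.7 RPKM and was not called.

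Genes that act on cyclic AMP after it is made also differed by group. Rapgef4, which encodes the cyclic AMP-activated exchange factor Epac2, rose in miR-24 Tg (6.19 ± 1.26 against 2.89 ± 0.846 RPKM, 1.99-fold, limma adjusted p = 0.0081), and its call ended where the fit held only the 2 groups. In miR-27 Tg Rapgef4 was called in the other direction (1.71 ± 0.360 RPKM, 1.52-fold lower, limma adjusted p = 0.0382). Of 9 tested A-kinase anchor genes, whose proteins tether the kinase, Akap12 rose in miR-27 Tg (6.25 ± 0.566 against 4.17 ± 0.295 RPKM, limma adjusted p = 0.00104). Akap2 (1.73 ± 0.0911 against 3.14 ± 0.146 RPKM, limma adjusted p = 0.00836) and Akap8 (70.1 ± 8.57 against 93.0 ± 7.02 RPKM, limma adjusted p = 0.00911) fell there. The miR-27 Tg call for Akap8 ended when the 2 libraries of highest B cell markers were left out, and Akap2 shares exon sequence with Pakap on the same strand. Akap8 was called lower in cluster Tg too (74.5 ± 7.41 RPKM). In miR-23 Tg the single call was Prkar2a, a type II regulatory subunit of protein kinase A (7.43 ± 0.467 against 4.72 ± 0.263 RPKM, 1.52-fold higher, limma adjusted p = 0.0382). That call ended without any 1 of the 6 libraries, and without the filter. Prkar1a was called higher in miR-27 Tg (1.24-fold, limma adjusted p = 0.0228) and cluster Tg (1.25-fold, limma adjusted p = 0.0221). In miR-27 Tg the catalytic subunit gene Prkacb was called lower (1.16-fold, limma adjusted p = 0.0179) and Pkig higher (1.7-fold, limma adjusted p = 0.0242). None of 7 tested CREB family genes and none of 9 tested CREB target genes was called by limma in any of the 5 comparisons. At an unadjusted p under 0.05, 1 CREB family gene in cluster Tg and 1 target gene in miR-27 Tg passed. The CREB target genes were not close to WT in every group, however. Their median log2 difference was −1.14 in miR-27 Tg and 0.52 in miR-23 Tg, against 0.01 over all genes in each. The libraries of a group were far apart for them: Fos, an immediate-early gene, ran from 26.8 to 376 RPKM in miR-27 Tg and from 195 to 504 in WT. The lack of calls therefore does not show that these genes did not differ. Whether the 9 genes moved together within a library was not tested, so their median need not stand for 9 separate differences.

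Among genes of ligand supply, Nt5e, which encodes the adenosine-forming enzyme CD73, rose in cluster Tg (159 ± 15.04 against 102 ± 9.65 RPKM, 1.56-fold, limma adjusted p = 0.00198) and in miR-24 Tg (149 ± 5.24, 1.46-fold, limma adjusted p = 0.0124). The miR-24 Tg call for Nt5e ended without WT library 2. Nt5e was called higher in miR-27 Tg too (132 ± 27.2 RPKM), although its libraries there (108 to 161) overlapped WT (93.5 to 112). Ada, the adenosine-degrading deaminase, fell in cluster Tg (4.65 ± 1.53 against 7.95 ± 0.313 RPKM, 1.69-fold, limma adjusted p = 0.0267), a call kept in 6 of 12 alternatives. The Ada call ended without cluster Tg library 1 or 2 or any WT library, and where only the 2 groups were fitted. Gja1, which encodes a gap junction protein, was at 2.41 to 3.36 RPKM in miR-27 Tg and at 0.337 to 0.644 in WT. Outside miR-27 Tg it reached 1 RPKM in 1 library, of cluster Tg (1.21), so it was tested only through the group where it is high. It is included in the counts of called genes in miR-27 Tg and cluster Tg, and no test is drawn on for it. Of 6 other tested receptors, Calcrl rose in cluster Tg (6.57 ± 0.911 against 4.27 ± 0.613 RPKM, 1.48-fold, limma adjusted p = 0.00875). Calcrl was also called higher in miR-24 Tg (1.49-fold, limma adjusted p = 0.0187) and miR-27 Tg (1.39-fold, limma adjusted p = 0.0192), and Gpr65, a proton-sensing receptor, in miR-24 Tg (1.46-fold, limma adjusted p = 0.0499).

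**Figure D5:**
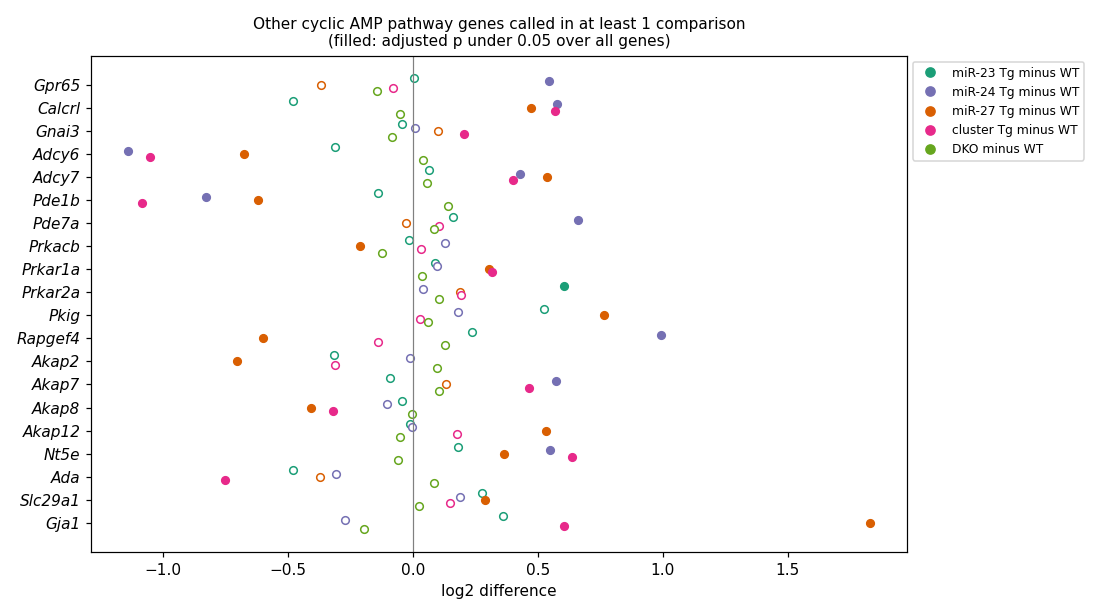
Difference from WT on the log2(RPKM + 0.5) scale (horizontal axis) for the 20 other pathway genes called in at least 1 of the 5 comparisons, with filled points for calls and open points for the rest. Adcy6 lies to the left in miR-24 Tg, cluster Tg and miR-27 Tg (−1.14, −1.05 and −0.68), and no DKO point is filled. Gja1 was tested only through the miR-27 Tg libraries, where it is high.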

How the data were processed

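Per the labels' protocols, total RNA with small RNAs was extracted with a miRNeasy kit from sorted Treg cells and made into TruSeq libraries. The authors deposited 1 table of RPKM values with a column for each of 18 libraries. The submitters' processing notes name STAR 2.2.0c, HOMER and mm10 (GRCm38). Which step made the RPKM values, the annotation and the strand setting are not given in the sources used here.

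The 4 entries with a repeated symbol were left out, and tests ran on log2(RPKM + 0.5) for the 11520 genes that reached 1 RPKM in 3 or more libraries. All 18 libraries entered 1 limma 3.58.1 model (R 4.3.3), fitted with a trend of variance on mean level, from which 12 comparisons were taken. A gene was called at a two-sided Benjamini-Hochberg adjusted p under 0.05 over all tested genes. On simulated data with 200 genes changed by 1 on the log2 scale in miR-23 Tg, over 11520 genes, 82% were called, with 6 others. The simulated noise was independent between genes and libraries, and 41 genes were called in the real comparison. The share called in the simulation therefore need not hold for these data. Folds come from the model, and means are of RPKM. Locations, 3′ UTRs and matches were read from GENCODE M21 with Python 3.11.15 and pandas 2.3.3. Depth was estimated from 5346 genes with a single transcript. Figures used matplotlib 3.10.9.

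The 9 genes, the pathway lists and the marker lists were chosen with earlier results of these data known. Of the other pathway genes, the text names the called ones by smallest p, up to 3 in each direction and comparison. In miR-27 Tg, Rapgef4, Pde7a, Pde1b, Calcrl, Prkar1a, Prkacb, Pkig and Nt5e fall outside this rule. So do Adcy7, Calcrl and Gpr65 in miR-24 Tg, Prkar1a and Akap8 in cluster Tg, and Fos. All of these were named after their values were seen. For likeness it names the 5 genes with the highest Pearson r with Pde3b, without predicted symbols, and the most alike members. Alternatives left out each library in turn, used the replicate number as a block, kept only the 2 groups compared, rescaled by median-of-ratios factors, dropped the filter, or changed the pseudocount to 0.1 or 1. Leaving out the 2 libraries of highest B cell markers was added after seeing the data.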

Additional observations from a re-analysis of the deposited data

How the results depend on the processing

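No called difference of the 9 genes changed sign in any alternative. With 3 libraries a group, the number of calls moved more than the differences. Members called in miR-23 Tg were 2, and 0 with a pseudocount of 1, 0 without the filter, 1 with only the 2 groups and 0 to 0 with a library left out. In miR-27 Tg 6 members were called, and 2 with only the 2 groups, 3 to 5 with a library left out and 3 without the 2 libraries of highest B cell markers. In miR-24 Tg (3) leaving out a library gave 1 to 3 members, in cluster Tg (4) 3 to 5 and in DKO 0.

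Other pathway genes called in miR-23 Tg were 1, and 0 without the filter, 0 to 0 with a library left out and 2 without the 2 libraries. In miR-24 Tg there were 9, and 5 with only the 2 groups, 5 to 8 with a library left out and 5 without the 2 libraries. In miR-27 Tg there were 14, and 8 with only the 2 groups and 8 to 14 with a library left out. In cluster Tg there were 11, and 6 with only the 2 groups and 5 to 13 with a library left out. Median-of-ratios factors were 0.9882 to 1.019.

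Over all genes no general pairing by replicate number was seen. Over 45 pairs of different groups with the same number, deviations correlated at a median of 0.00397 (−0.167 to 0.188), with 6 over 0.1. Such a median cannot show that single genes were free of an effect of the number. Library 3 was the lowest for Ptger4 and Pde4b in every group but miR-23 Tg. It was the highest for Prkar1b in every group but miR-27 Tg. These patterns were seen afterwards and were not tested. With the replicate block the members called were 2, 3, 6, 4 and 0 in miR-23 Tg, miR-24 Tg, miR-27 Tg, cluster Tg and DKO, and the other pathway genes 1, 9, 17, 10 and 0.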
